A study of Arabidopsis thaliana with 6 samples.

Results

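The COR15, KIN, RD29 and COR413 genes encode hydrophilic and membrane proteins that accumulate when Arabidopsis is chilled or dried. They were chosen by their locus identifiers, 9 of the 33557 loci of the table: COR15A, COR15B, KIN1, KIN2, RD29A, RD29B, COR413-PM1, COR414-TM1 and its neighbour copy, called COR413-IM2 here. Transcript levels were measured by RNA sequencing in 3 libraries of the mutant camta1/2/3/sid2 and 3 libraries of wild-type (WT) plants, all of the Col-0 accession. Each library came from the whole aerial part of soil-grown plants, aged 21 days after germination. The plants had grown at 22 °C in a 12 h photoperiod under 100 to 120 µmol per square metre per second of light, and were sampled 12 h after lights-on (ZT12). The mutant has lesions in CAMTA1, CAMTA2 and CAMTA3, calmodulin-binding transcription factors, and in SID2, which encodes the salicylic acid synthesis enzyme ICS1. The labels name no alleles, and neither a sid2 mutant nor a camta mutant with ICS1 is analysed here, so the parts of the mutated genes cannot be told apart. The authors deposited 1 combined FPKM value (fragments scaled for the length of the transcript and the size of the library) per genotype and locus. No difference below therefore has a replicate check, an error or a p-value, and the sequencing depth is unknown.

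In cold-acclimating Arabidopsis, chilling induces the CBF transcription factors, which bind a short promoter element, the C-repeat or dehydration-responsive element (CRT/DRE), and raise the transcripts of their target genes. Abscisic acid, the hormone of drought responses, acts on many of the same genes through another element, the ABRE, which is bound by ABF factors. COR15A, RD29A and the KIN genes are textbook targets of these routes, and the CAMTA factors are known to take part in the cold induction of CBF genes. No plant of this comparison was chilled, so the values describe basal levels in the warm at the end of the day.

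The upstream sequences of COR15A, RD29A and RD29B are shown because they carry the elements these genes are known for, in different numbers. Each is the 250 bases before the gene start in the RefSeq annotation of assembly TAIR10.1, read 5′ to 3′ on the strand of the gene, with the CRT/DRE core (CCGAC) and the ABRE core (ACGTG) of either strand in capitals. The submitters' processing notes name the build TAIR10, and the genes were matched by locus identifier.
COR15A, chr2:17712331-17712580, minus strand: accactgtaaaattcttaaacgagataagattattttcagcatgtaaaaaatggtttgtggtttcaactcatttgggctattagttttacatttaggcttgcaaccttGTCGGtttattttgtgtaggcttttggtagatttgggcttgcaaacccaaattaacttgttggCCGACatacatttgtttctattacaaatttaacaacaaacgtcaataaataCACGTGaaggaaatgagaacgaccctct
RD29A, chr5:21240467-21240716, plus strand: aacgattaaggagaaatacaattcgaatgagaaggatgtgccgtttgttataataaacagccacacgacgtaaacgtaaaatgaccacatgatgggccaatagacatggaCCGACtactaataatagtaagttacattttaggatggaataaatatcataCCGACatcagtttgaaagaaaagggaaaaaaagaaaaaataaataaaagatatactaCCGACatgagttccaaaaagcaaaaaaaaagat
RD29B, chr5:21236771-21237020, plus strand: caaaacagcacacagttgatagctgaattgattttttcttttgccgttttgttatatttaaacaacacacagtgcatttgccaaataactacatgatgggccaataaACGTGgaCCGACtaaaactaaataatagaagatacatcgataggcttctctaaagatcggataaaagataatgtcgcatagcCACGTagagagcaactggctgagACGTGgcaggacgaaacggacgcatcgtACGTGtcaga
RD29A had 3 CRT/DRE cores and no ABRE core in this window, RD29B had 1 CRT/DRE core and 4 ABRE cores, and COR15A had 2 CRT/DRE cores and 1 ABRE site. Matches on both strands were counted, and overlapping matches of 1 motif, as in the palindrome of COR15A, counted as 1 site. Of 27443 protein-coding genes, 12.0% had a CRT/DRE core in the window of this length, 1.41% had 2 or more, and 22.9% had an ABRE core.

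The RefSeq starts of COR15B and COR413-IM2 lie 7 and 25 bases from the end of the neighbouring gene copy, so their windows fall on that copy. All 9 genes were therefore also searched over the 500 bases before the start codon, which include leader sequence. There 8 of 9 genes had a CRT/DRE core, against 23.3% of all genes, and 9 of 9 had an ABRE core, against 34.6%. COR15A, RD29A and the KIN genes are known targets of the CBF and abscisic acid routes, and tandem copies were counted separately. These shares are therefore descriptions of a chosen set. The gene without a CRT/DRE core in this window was COR413-IM2. Its start codon lies 225 bases after its gene start, so part of its window still falls on COR414-TM1. The 25 bases around a core of the other COR15, KIN and COR413 genes are shown, on the strand that reads CCGAC (capitals), since they show how the copies resemble each other.
COR15A, chr2:17712218-17712242, minus strand: aatttcatggCCGACctgctttttt
COR15B, chr2:17710124-17710148, minus strand: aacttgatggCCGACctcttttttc
KIN1, chr5:5209804-5209828, plus strand: taaatagctaCCGACataaggcaaa
KIN2, chr5:5211771-5211795, plus strand: taaaaagctaCCGACataaggcaaa
COR413-PM1, chr2:6949668-6949692, plus strand: ttaatgtataCCGACataccctatg
COR414-TM1, chr1:10289911-10289935, plus strand: ttcattggtaCCGACataactaatt
In COR15A and COR15B the core shown began 266 and 265 bases before the start codon, and in KIN1 and KIN2 178 and 185 bases. COR15A had another core in this window, at 443 bases, which is also in its sequence before the gene start. In COR413-PM1 and COR414-TM1 the core lay farther away than those shown for the COR15 and KIN genes, at 485 and 386 bases. The evening element (AAAATATCT), a motif of clock-controlled genes, occurred in 4 of 9 genes (COR15A, COR15B, KIN2 and COR413-PM1), against 3.96% of all genes. Each of these matches lay between the annotated gene start and the start codon. In the 250 bases before the gene start, 0 of 9 genes had the evening element, against 2.36% of all genes. The letters CGCG, a core bound by CAMTA factors, occurred in 1 of 9 genes, RD29A, against 20.7% of all genes. No site of 1 motif overlapped a site of another in these windows. A match describes the letters of the window and not the binding of a factor.

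**Figure D1:**
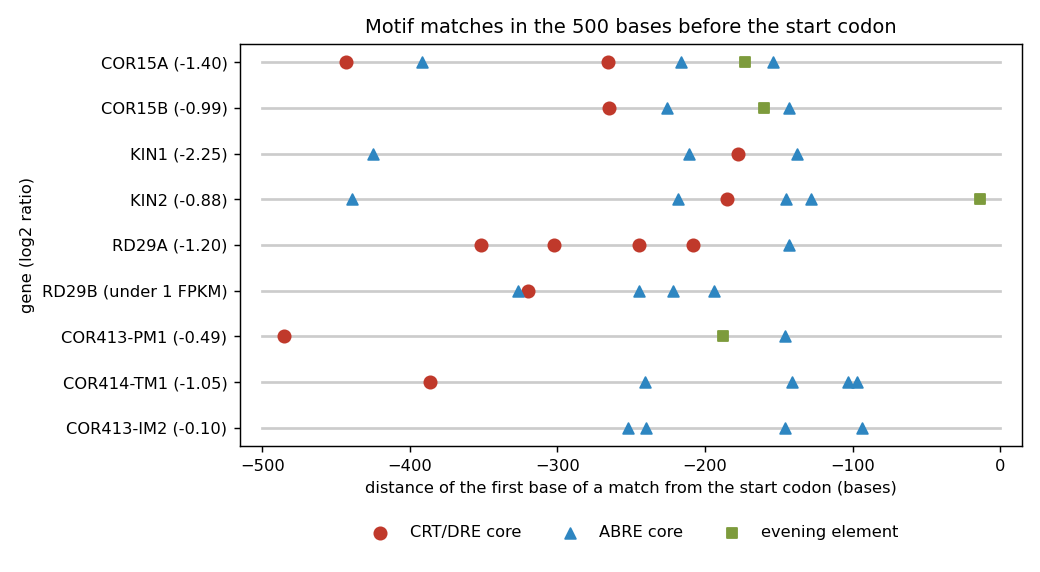
The horizontal axis gives the distance from the start codon in bases and each row is a gene, with its log2 ratio (camta1/2/3/sid2 over WT) in brackets. Points mark the first base of each CRT/DRE core, ABRE core and evening element in the 500 bases before the start codon, with COR413-IM2 (log2 ratio -0.10) the only row without a CRT/DRE point. Part of the COR413-IM2 window falls on COR414-TM1.

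Transcripts of most of these genes were lower in the mutant, and the genes differed widely in level and in the size of the difference. Differences are given as the log2 ratio, the mutant value minus the WT value of log2(FPKM + 1). This scale understates the difference of genes at low levels. Of the 9 genes, 8 reached 1 FPKM in at least 1 genotype and were analysed. All 8 were lower in the mutant, where 64.6% of the 18547 analysed loci were lower by any amount. None was at least 2-fold higher, where 0.787% of analysed loci were. Of the 8, 4 were at least 2-fold lower (KIN1, COR15A, RD29A and COR414-TM1), where 0.69% of analysed loci were, and 6 were at least 1.5-fold lower, where 1.99% were. Their median log2 ratio was -1.02, beside -0.06 over all analysed loci. The summed FPKM of the 9 genes was 3944 in the mutant and 7260 in WT, which is 0.443% of the FPKM of all loci in the mutant and 0.799% in WT. In whole aerial tissue, fewer cells that express a gene and less of its RNA per cell cannot be told apart.

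**Figure D2:**
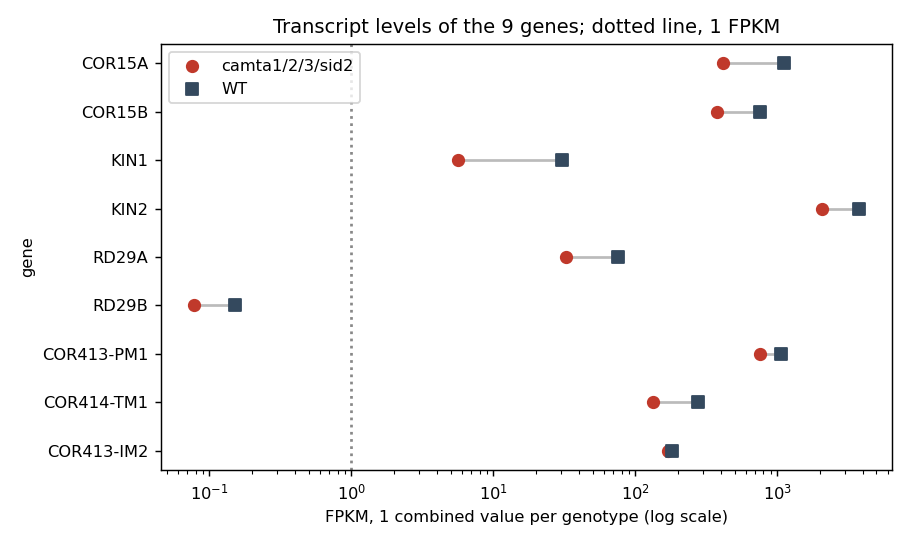
The horizontal axis is FPKM on a log scale and each row is a gene; circles are camta1/2/3/sid2 and squares WT, each the authors' 1 combined value. The circle lies left of the square for every gene, the gap is widest for KIN1 (5.64 FPKM in camta1/2/3/sid2 and 30.5 FPKM in WT), and RD29B lies below 1 FPKM in both genotypes.

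The COR15 genes encode small disordered proteins that are imported into the chloroplast stroma and protect chloroplast membranes during freezing. They lie side by side on the minus strand of chromosome 2, COR15A (AT2G42540) at chr2:17710441-17712330 and COR15B (AT2G42530) at chr2:17708593-17710433 (TAIR10.1, as for all coordinates given). COR15A was 418 FPKM in the mutant and 1108 FPKM in WT, 2.65-fold lower, a log2 ratio of -1.40. In the order of transcript levels over all loci it was at rank 304 in the mutant and rank 94 in WT. COR15B was 378 FPKM in the mutant and 751 FPKM in WT, a log2 ratio of -0.99, which is 1.98-fold lower and just short of the 2-fold limit. The difference was larger for COR15A, so that the copies were closer in level in the mutant, where COR15A was 1.105 times COR15B, against 1.48 times in WT. Their coding sequences are 83.8% identical over 420 aligned bases. No stretch of 50 bases is shared between the RefSeq transcripts of COR15A and COR15B.

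The KIN genes encode very small hydrophilic proteins of 66 residues that are induced by cold and abscisic acid. KIN1 (AT5G15960, chr5:5209717-5210826) and KIN2 (AT5G15970, chr5:5211719-5212743) lie in the same direction on the plus strand, 892 bases apart. Their coding sequences, which show how alike the copies are, have the same length of 201 bases and differ at 10 of them, marked in capitals.
KIN1: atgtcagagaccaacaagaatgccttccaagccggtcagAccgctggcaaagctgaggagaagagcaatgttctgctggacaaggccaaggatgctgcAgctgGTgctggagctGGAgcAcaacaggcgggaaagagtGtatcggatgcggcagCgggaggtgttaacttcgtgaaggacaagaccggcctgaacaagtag
KIN2: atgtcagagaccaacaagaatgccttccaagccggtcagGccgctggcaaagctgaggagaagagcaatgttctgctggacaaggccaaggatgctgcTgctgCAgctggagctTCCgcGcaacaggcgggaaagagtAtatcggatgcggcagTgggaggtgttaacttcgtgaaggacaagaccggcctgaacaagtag
KIN1 was 5.64 FPKM in the mutant and 30.5 FPKM in WT. This 5.41-fold difference, a log2 ratio of -2.25, was the largest among the 8 analysed genes. KIN2 was 2056 FPKM in the mutant and 3779 FPKM in WT, a log2 ratio of -0.88 and 1.84-fold lower. It was by far the most abundant transcript of the 9, at rank 46 of all loci in the mutant and rank 19 in WT, and held 0.231% of all FPKM in the mutant and 0.416% in WT. KIN2 exceeded KIN1 364-fold in the mutant and 124-fold in WT. Of the 780 overlapping stretches of 50 bases in the RefSeq transcript of KIN1, 10 (1.28%) are shared with KIN2. They overlap and are not 10 separate blocks. The authors' way of assigning reads that fit both copies is not stated in those sources that were used. The KIN1 value, which is small beside that of KIN2, is uncertain for this reason. Their summed FPKM, which depends less on that assignment, was 2062 in the mutant and 3810 in WT, 1.85-fold lower.

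RD29A and RD29B are a tandem pair on the plus strand of chromosome 5 whose products are large hydrophilic proteins. RD29A responds to cold, drought and salt, and RD29B mainly to abscisic acid. RD29A (AT5G52310, chr5:21240717-21243644) was 32.3 FPKM in the mutant and 75.5 FPKM in WT, 2.34-fold lower, a log2 ratio of -1.20. RD29B (AT5G52300, chr5:21237021-21239531) was 0.0783 FPKM in the mutant and 0.152 FPKM in WT and was not analysed as a difference. The 2 coding sequences are 79.7% identical over the 1648 bases that align, of 2345 alignment positions, and share no stretch of 50 bases.

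The COR413 genes encode proteins with several membrane-spanning segments. COR413-PM1 belongs to the plasma membrane, and COR414-TM1, also called COR413-IM1, and COR413-IM2 to the inner envelope of the chloroplast. COR413-PM1 (AT2G15970, chr2:6949851-6951192) was 751 FPKM in the mutant and 1057 FPKM in WT, 1.41-fold lower, a log2 ratio of -0.49. COR414-TM1 (AT1G29395, chr1:10288129-10289666) was 133 FPKM in the mutant and 278 FPKM in WT, a log2 ratio of -1.05 and 2.08-fold lower, just past the 2-fold limit. With the median log2 ratio of all analysed loci scaled to 0, the log2 ratio of COR414-TM1 was -0.99 and no longer reached 2-fold. Its neighbour COR413-IM2 (AT1G29390, chr1:10286067-10288103) was 169 FPKM in the mutant and 182 FPKM in WT, 1.07-fold lower, a log2 ratio of -0.10. The order of the tandem copies was opposite in the genotypes: COR414-TM1 was 0.788 times COR413-IM2 in the mutant and 1.53 times COR413-IM2 in WT. The coding sequences of COR414-TM1 and COR413-IM2 are 87.2% identical over 678 aligned bases. Of the 972 overlapping stretches of 50 bases in the transcript of COR414-TM1, 10 (1.03%) are shared with COR413-IM2. The 3 other COR413 relatives were at lower levels: COR413-PM2 was 32.9 FPKM in the mutant and 41.6 FPKM in WT, AT2G23680 was 11.1 FPKM in the mutant and 9.53 FPKM in WT, and AT4G37220 was under 1 FPKM in both.

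In the order of levels in the mutant, KIN2 came first, followed by COR413-PM1, COR15A, COR15B, COR413-IM2, COR414-TM1, RD29A, KIN1 and RD29B. In WT, COR15A stood above COR413-PM1, and COR414-TM1 above COR413-IM2, while the other positions were the same. Whether neighbours in these orders differ beyond their spread cannot be said without values per library. In each tandem pair with both copies analysed, the members differed in log2 ratio: by -0.42 for COR15A minus COR15B, by 1.37 for KIN2 minus KIN1 and by -0.95 for COR414-TM1 minus COR413-IM2.

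**Figure D3:**
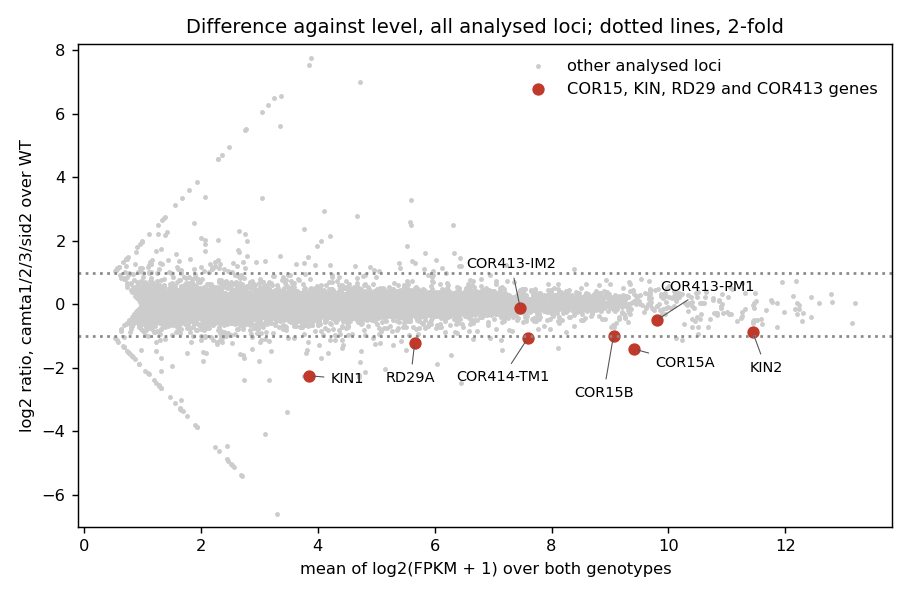
The horizontal axis is the mean of log2(FPKM + 1) over both genotypes and the vertical axis the log2 ratio, camta1/2/3/sid2 over WT; each point is 1 of the 18547 analysed loci, with the 8 analysed genes in red. KIN1, COR15A, RD29A and COR414-TM1 lie below the dotted line of 2-fold, and COR413-IM2 lies within the cloud.

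High transcript levels with a difference of this size were uncommon in the table. Of 1501 loci with at least 100 FPKM in at least 1 genotype, 13 (0.866%) were at least 2-fold lower in the mutant, among them COR15A and COR414-TM1, and 48.8% were lower by any amount. By log2 ratio, COR15A was the 5th lowest of these loci, COR414-TM1 the 12th, COR15B the 14th, KIN2 the 17th and COR413-PM1 the 68th. COR413-IM2 was the 446th. Among other loci with at least 100 FPKM in WT, the 5 lowest log2 ratios were those of AT5G03350 (-2.48), the snoRNA locus AT4G03295 (-1.88), AT5G08760 (-1.59), AT4G22505 (-1.43) and the light-harvesting antenna gene LHCB1.4, AT2G34430 (-1.37). AT5G03350 was 36.0 FPKM in the mutant and 206 FPKM in WT, and LHCB1.4 was 171 FPKM in the mutant and 445 FPKM in WT. Of the 5, only LHCB1.4 also reached 100 FPKM in the mutant, so that the direction of the others was fixed by the limit in WT.

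For each gene, the protein-coding locus with the most similar pair of values was taken as the one at the smallest Euclidean distance in log2(FPKM + 1) over 2 values, 1 per genotype. COR413-IM2 was closest to MTACP-1, a mitochondrial acyl carrier protein gene, at a distance of 0.0027. COR15A had no close match, since its nearest locus, AT1G67865, lay at a distance of 0.62, with 525 FPKM in the mutant and 770 FPKM in WT. The other distances lay between. That to AT3G22235, with 2060.2 FPKM in the mutant and 3605.7 FPKM in WT, was 0.068 for KIN2. The myrosinase gene TGG2 lay 0.073 from COR413-PM1, and AT4G22485, with 127 FPKM in the mutant and 273 FPKM in WT, lay 0.076 from COR414-TM1. The nearest locus was at 0.14 for KIN1 (AT5G44568), 0.19 for COR15B (the antenna gene LHCB4.2) and 0.21 for RD29A (DOT1).

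The genes beside the COR15, KIN, RD29 and COR413 genes mostly did not share their differences. Of 30 annotated loci, 3 on each side of each gene or tandem pair, 17 were analysed, 12 lower and 5 higher in the mutant, where 64.6% of all analysed loci were lower. Their median log2 ratio was -0.08, beside -0.06 over all analysed loci. None of the 17 was at least 2-fold different, and 1 was past 1.5-fold. That locus, AT2G15960, lies directly beside COR413-PM1 and was 68.7 FPKM in the mutant and 114 FPKM in WT, a log2 ratio of -0.72, beside -0.49 for COR413-PM1. Next to the COR15 genes, AT2G42520 was 27.0 FPKM in the mutant and 26.9 FPKM in WT. AT5G15950, beside KIN1, was higher in the mutant, at 15.2 FPKM, against 11.4 FPKM in WT. CYP96A4, beside RD29A, was 25.1 FPKM in the mutant and 26.4 FPKM in WT. ML5, beside COR414-TM1, was 36.4 FPKM in the mutant and 42.5 FPKM in WT.

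**Figure D4:**
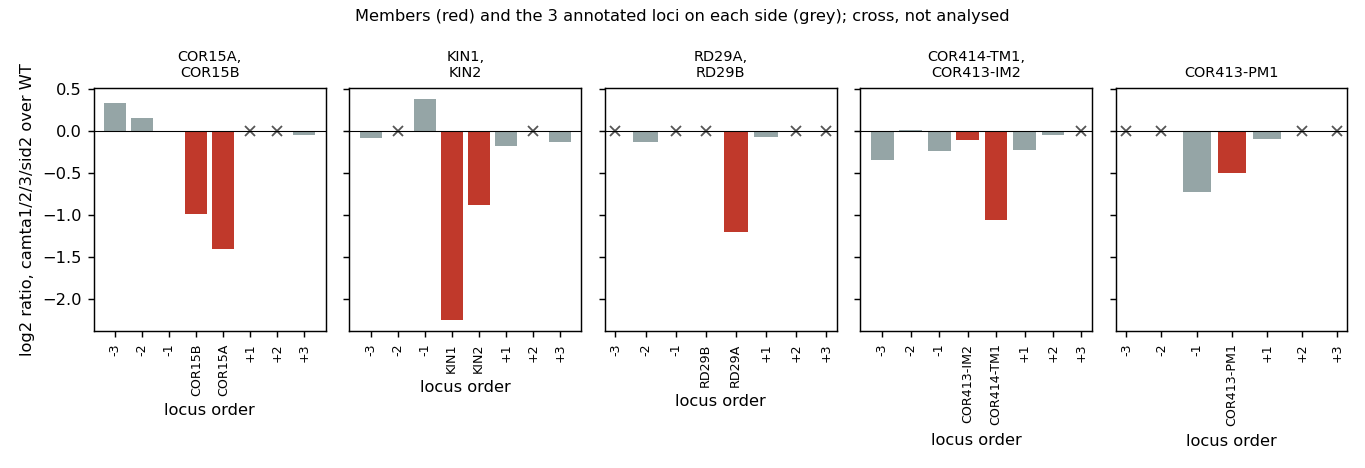
Each panel is a gene or tandem pair with the 3 annotated loci on each side in chromosome order, and bars give the log2 ratio, camta1/2/3/sid2 over WT. Red bars are the COR15, KIN, RD29 and COR413 genes, grey bars flanking loci between -0.72 and 0.38, and crosses loci that were not analysed.

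Among other cold-regulated genes, a pair of lipid transfer protein genes had lower log2 ratios than any of the 8 analysed genes above. Of 18 analysed genes of a list of 19, 14 (77.8%) were lower in the mutant and 4 higher, beside 64.6% of all analysed loci lower. The median log2 ratio of the 18 was -0.25, beside -0.06 over all analysed loci. The count at least 1.5-fold lower was 5, beside 1.99% of all analysed loci, and it includes GOLS3, which passed the limit of 1 FPKM only in WT. At least 2-fold lower were 2, beside 0.69% of all analysed loci. The 2 were the neighbouring lipid transfer protein genes LTP4 (AT5G59310), at 1.07 FPKM in the mutant and 34.4 FPKM in WT, and LTP3 (AT5G59320), at 2.45 FPKM in the mutant and 34.8 FPKM in WT. Read sharing between these related genes was not measured. The dehydrin genes ERD10 (AT1G20450), at 71.0 FPKM in the mutant and 126 FPKM in WT, and COR47 (AT1G20440), at 49.2 FPKM in the mutant and 82.7 FPKM in WT, form another tandem pair and had log2 ratios of -0.82 and -0.74. GOLS3, a galactinol synthase gene of the CBF route, was 0.273 FPKM in the mutant and 1.01 FPKM in WT. BAM3, a chloroplast beta-amylase, was 244 FPKM in the mutant and 235 FPKM in WT. SFR2, which remodels chloroplast envelope lipids in freezing, was 67.2 FPKM in the mutant and 62.0 FPKM in WT.

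The genes that control this group did not show a common direction. Of 20 analysed upstream regulators of a list of 26, 10 were higher and 10 lower in the mutant, where 64.6% of all analysed loci were lower. Their median log2 ratio was -0.01, beside -0.06 over all analysed loci, and was above 0 with either rescaling or a filter of 5 FPKM. The list mixes activators, such as ICE1, with repressors, such as PRR7. CBF3 (AT4G25480) was 5.18 FPKM in the mutant and 8.55 FPKM in WT, a log2 ratio of -0.63. CBF1 was 0.233 FPKM in the mutant and 0.493 FPKM in WT, which is under the limit of 1 FPKM. CBF2, at 0.138 FPKM in the mutant and 0.133 FPKM in WT, and CBF4, at 0.0266 FPKM in the mutant and 0.0374 FPKM in WT, were under it as well. ICE1, an activator of CBF3, was 25.1 FPKM in the mutant and 24.3 FPKM in WT. The zinc finger gene ZAT10 (AT1G27730) had the highest log2 ratio of the list, 0.75, at 8.50 FPKM in the mutant and 4.64 FPKM in WT. The clock gene PRR7, known to repress CBF genes, was 9.92 FPKM in the mutant and 12.8 FPKM in WT, and the transcription factor HSFC1 was 3.26 FPKM in the mutant and 4.35 FPKM in WT.

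Most genes of abscisic acid synthesis, signalling and response differed by small amounts. Of 18 analysed genes of a list of 22, 16 (88.9%) were lower in the mutant, beside 64.6% of all analysed loci. Their median log2 ratio was -0.12, beside -0.06 over all analysed loci, with none at least 2-fold different on this scale. NCED3, the drought-induced enzyme of abscisic acid synthesis, was 0.780 FPKM in the mutant and 2.36 FPKM in WT, a plain ratio of 3.03-fold. NCED3, HAI2 and AFP1 passed the limit of 1 FPKM only in WT, so that their direction was fixed by the filter. Of the phosphatase genes of the pathway, HAI1 was 3.06 FPKM in the mutant and 6.53 FPKM in WT, a plain ratio of 2.14-fold. HAI2 was 0.786 FPKM in the mutant and 1.72 FPKM in WT, a plain ratio of 2.19-fold. The pseudocount of 1 FPKM keeps these genes under 2-fold on the log2 scale. RAB18, an abscisic acid marker, was 10.6 FPKM in the mutant and 13.6 FPKM in WT. AFP1, which encodes a partner of the transcription factor ABI5, was 0.914 FPKM in the mutant and 1.56 FPKM in WT. Of 18 other late embryogenesis abundant (LEA) proteins, relatives in kind of the COR15 proteins, 5 were analysed. Of these, 3 were lower and 2 higher in the mutant, beside 64.6% of all analysed loci lower. Their median log2 ratio was -0.10, beside -0.06 over all analysed loci, and was 0.13 with a filter of 5 FPKM. Among them SAG21, a LEA protein of senescing and stressed tissue, was higher, at 29.1 FPKM in the mutant and 7.35 FPKM in WT, while LEA14 was 159.8 FPKM in the mutant and 220.1 FPKM in WT. LEA27 was 9.70 FPKM in the mutant and 7.38 FPKM in WT, and LEA3 (AT1G02820) was 3.48 FPKM in the mutant and 4.06 FPKM in WT. LEA14 is also in the list of cold-regulated genes.

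**Figure D5:**
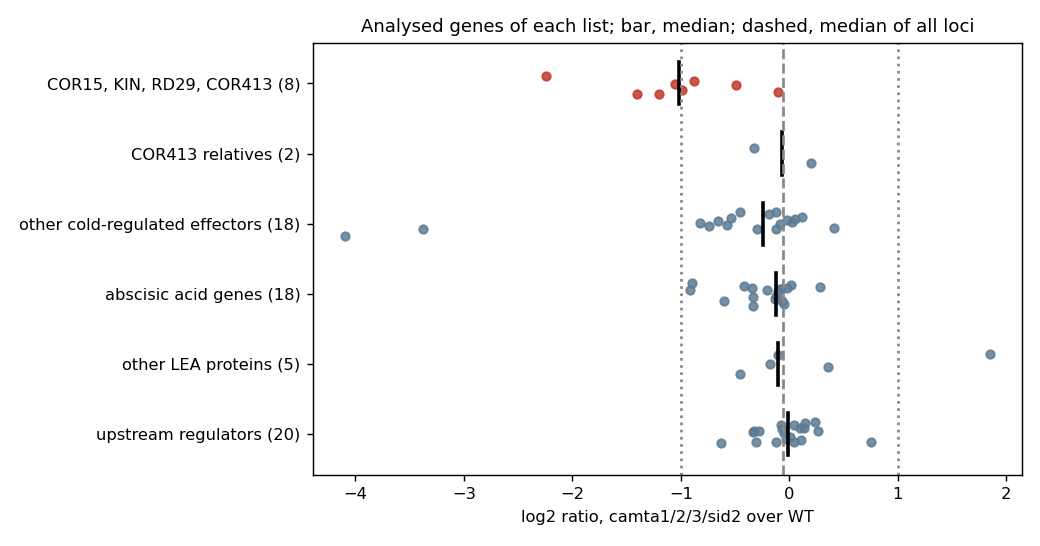
The horizontal axis is the log2 ratio, camta1/2/3/sid2 over WT, and each row a gene list with its number of analysed genes in brackets; points are genes, black bars medians, and the dashed line the median of all analysed loci. The median of the COR15, KIN, RD29 and COR413 genes is -1.02, and those of the other lists lie between -0.25 and -0.01.

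Among the targeted transcripts, CAMTA1 was 3.30 FPKM in the mutant and 13.6 FPKM in WT, and CAMTA3 was 2.68 FPKM in the mutant and 9.94 FPKM in WT. CAMTA2 was 6.32 FPKM in the mutant and 9.25 FPKM in WT, and ICS1 was 3.73 FPKM in the mutant and 4.56 FPKM in WT. With no alleles named, these levels could not be set against the sites of the mutations. CAMTA4, CAMTA5 and CAMTA6, which the genotype does not name, had log2 ratios between -0.12 and -0.09. Markers of the labelled tissue were high in both genotypes but went in both directions: RCA, the Rubisco activase gene, was 3121 FPKM in the mutant and 1944 FPKM in WT, while the leaf antenna genes LHCB3, CAB3 and LHCB1.1 were 2.16-fold, 2.09-fold and 2.21-fold lower in the mutant. Read sharing between the antenna genes was not measured. Their differences lie near that of COR414-TM1 (2.08-fold), which, like the COR15 genes, also encodes a chloroplast protein. Among other genes for chloroplast proteins named above, LHCB1.4 was 2.60-fold and COR413-IM2 1.07-fold lower in the mutant. BAM3 was 1.04-fold and SFR2 1.08-fold higher, and both are examples chosen after their values were seen. The part of leaf makeup in the values of the COR15, KIN, RD29 and COR413 genes was not tested. The root gene PYK10 was 55.8 FPKM in the mutant and 51.6 FPKM in WT. The 5 flower markers summed to 1.38 FPKM in the mutant and 1.59 FPKM in WT, and the 5 seed markers to 0.0828 FPKM in the mutant and 0.133 FPKM in WT, with 3 of these listed at 0 in both.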

How the data were processed

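The deposited table holds FPKM values, per the file headers, for 33557 loci, with 1 value for camta1/2/3/sid2 and 1 for WT; each stands for 3 libraries combined by the authors, by a method that no source used here states. TopHat 1.4.1, Cufflinks 2.1.1, Cuffdiff and the build TAIR10 are named, per the submitters' processing notes. How multi-mapping reads were handled is not stated in them.

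FPKM is no count and keeps no depth here, so no test was run. Loci with at least 1 FPKM in at least 1 genotype (18547) were analysed by the difference in log2(FPKM + 1); called means at least 2-fold on this scale, and folds in the text are plain FPKM ratios. The procedure was run on simulated data, and the error of its calls in these data was not tested, since the table has 1 value per genotype. The members, lists and limits were chosen with earlier results of these data known. Named genes are the 9 members, all COR413 relatives, the CBF, CAMTA and ICS1 genes, up to 4 analysed genes of each list with the largest absolute log2 ratio, the 5 lowest other loci of at least 100 FPKM in WT, the locus closest to each member, and flanking loci past 1.5-fold. Other list genes and flanking loci are examples chosen after their values were seen. The other root markers are not reported here.

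Gene models, promoters and coding sequences came from RefSeq (TAIR10.1), matched by locus identifier for 32813 loci (97.8%) and for 9 of 9 members. Coding sequences were aligned globally with Biopython 1.88. Python 3.11.15, numpy 2.4.6, pandas 2.3.3 and matplotlib 3.10.9 were used. Alternatives were pseudocounts of 0.1 and 0.5, no filter, a filter of 5 FPKM, 2 rescalings, protein-coding nuclear loci only, and tandem pairs summed.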

Additional observations from a re-analysis of the deposited data

How the results depend on the processing

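Of the 6 alternatives of pseudocount, scaling and filter, only the 2 rescalings could change the direction of a gene. All 8 analysed genes stayed lower in the mutant under each of the 6, 48 of 48 values. COR414-TM1 was the only one to cross the 2-fold limit, at -0.99 with the median log2 ratio of all loci scaled to 0, and the other 7 kept their side. The median of the analysed members, -1.02, was -0.96 with that scaling, -0.99 with equal summed FPKM, and -0.99 without a filter on low values, which adds RD29B. With the FPKM of each tandem pair summed, 2 of the resulting 5 values were at least 2-fold lower. The share of all loci at least 2-fold lower was 1.11% with a pseudocount of 0.1 and 0.381% without a filter. Without a filter 2 COR413 relatives and 9 other LEA proteins were lower, and with a filter of 5 FPKM 5 upstream regulators were. The median log2 ratio of the upstream regulators, -0.01, was 0.047 with the median of all loci scaled to 0, 0.0093 with equal summed FPKM and 0.042 with a filter of 5 FPKM. That of the other LEA proteins, -0.10, was 0.13 with this filter. Leaving out a replicate in turn was not run, since the table has 1 value per genotype. No paired analysis was possible because the columns carry no replicate.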

Other observations

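The number of CRT/DRE cores was also set against the difference over the table, outside the 9 genes described above. Among analysed protein-coding loci without a CCGAC match in the 500 bases before the start codon, 64 of 13128 (0.488%) were at least 2-fold lower in the mutant, and the median log2 ratio was -0.06. With 1 match, 13 of 3723 (0.349%) were, and with 2 matches 2 of 752 (0.266%). With 3 or more, 2 of 162 (1.23%) were, and the median was -0.10. At least 2-fold higher were 1 of these 162 (0.617%) and 81 of the 13128 loci without a match (0.617%). The 250 bases before the gene start were counted in the same way. There 73 of 15429 loci (0.473%) without a match were at least 2-fold lower. With 1 match, 7 of 2037 (0.344%) were, with 2 matches 1 of 261 (0.383%), and with 3 or more 0 of 38. A class of 38 loci is too small to show whether a share of this size differs. Its median log2 ratio was -0.10, beside -0.06 for the loci without a match. These are descriptions of 1 value per genotype, with no test.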
